A study of Canis lupus familiaris with 12 samples.

Results

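Integrins are the receptors by which cells hold on to extracellular matrix. Each is a pair of an alpha and a beta chain. The alpha chain often sets the ligand, and the tails of many beta chains, though not of all, bind talin and kindlin inside the cell. In kidney tubule epithelium, collagen is bound by ITGA1 or ITGA2 paired with ITGB1, laminin by ITGA3 or ITGA6 paired with ITGB1 and by ITGA6 paired with ITGB4, and fibronectin by ITGA5 with ITGB1 and by ITGAV with several beta chains. ITGAV with ITGB6 or ITGB8 is known to release active TGF-beta from its latent complex.

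The 10 integrin subunit genes described here (ITGA1, ITGA2, ITGA3, ITGA5, ITGA6, ITGAV, ITGB1, ITGB4, ITGB6 and ITGB8) were chosen by name, as every probe set on the array annotated to 1 of these genes alone. They had 26 probe sets of 42924 tested, and were 10 of 15115 genes. The samples were MDCK II tet-off cells, an established dog kidney tubule line, kept in serum medium with G418 and grown to day 8 in type I collagen gels. The 6 arrays of the 2D group, the control condition, held RNA of flat sheets, and the 6 arrays of the 3D group held RNA of multicellular cysts. All gels were digested with collagenase before RNA was taken, and RNA of 4 samples was pooled for each array, so p-values measure the spread between pools. Titles number them as biological replicates, without naming separate cultures.

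Median intensity per array lay between 89.98 and 93.75. Kidney epithelial markers fixed by name were above the level of control probe sets on all 12 arrays for 9 of 10 measured genes, with LHX1 above it on 0 arrays. Of these markers 3 rose in 3D (1 with the RNA ratio below as a covariate) and 2 fell. After median centring 0 fell, and 1 fell without any 1 of 2D replicates 1, 2, 3 and 5 and 3D replicates 1 and 4. The log2 of their summed intensities, in which bright markers weigh most, was 14.71 to 14.89 in 2D and 14.96 to 15.04 in 3D. Markers of fibroblasts, endothelium and leukocytes were measured too, and 4, 4 and 6 of these were above the control level on all arrays. For fibroblasts 0 rose and 2 fell of 9 (4 fell without either of 2D replicate 3 and 3D replicate 2). With array weights 4 fibroblast markers fell, with the probe sets of each gene averaged 5 did, and 1 of 4 left by a filter on low values did. For endothelium 0 rose and 2 fell of 6 (4 fell with array weights), and for leukocytes 1 and 4 of 8. The log2 of the summed intensities was 9.25 to 9.45 in 2D and 9.15 to 9.28 in 3D for fibroblasts. It was 8.89 to 9.04 and 8.76 to 8.91 for endothelium, and 9.37 to 9.52 and 9.31 to 9.50 for leukocytes. With that covariate 0 markers of these 3 lists were lowered, and with quantile normalization 1 leukocyte and 1 endothelial marker were. Over all genes 19.8% rose and 22.9% fell, and with that covariate 12.6% and 8.33%. COL1A2 and PECAM1 were at or below the control level on every array. The array carries 5-prime and 3-prime probe sets for actin and GAPDH, whose mean log2 ratio over 4 pairs, used as a sign of RNA integrity, is called the RNA ratio here. It was -0.91 ± 0.14 for 2D, against -0.54 ± 0.17 for 3D (SD over 6 arrays per group, exact two-sided permutation p = 0.00866). The pairs differed by unequal amounts, by 0.44 and 0.74 for actin and by 0.060 and 0.24 for GAPDH, of which 0.060 did not pass (exact permutation p = 0.201). Within 3D, replicate 2 stood apart with an RNA ratio of -0.88, against -0.55 to -0.40 on the other arrays. Replicate 2 of 3D and replicate 6 of 2D lay farthest out on the second principal component.

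In 3D, 8 of the 10 integrin genes rose, ITGA1 fell, and ITGB8 did not pass (limma, Benjamini-Hochberg adjusted p under 0.05). Over all genes the same rule called 42.7%, with 19.8% raised and 22.9% lowered. The rises ran from a log2 fold change of 0.39 for ITGB1 to 1.06 for ITGA3, and the fall of ITGA1 was -0.60. Their median was 0.63, beside a median of -0.05 over all genes. The values of 2D and 3D did not overlap for 7 of the 8 raised genes and for ITGA1, where 13.2% of all genes were separated upwards and 9.49% downwards. A rise of at least 1.5-fold was reached by 5 members (ITGA2, ITGA3, ITGA6, ITGAV and ITGB4), against 4.80% of all genes. Levels below are log2(intensity + 1) of the brightest probe set of each gene, are not comparable between genes, and cannot tell fewer expressing cells from less RNA per cell.

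**Figure D1:**
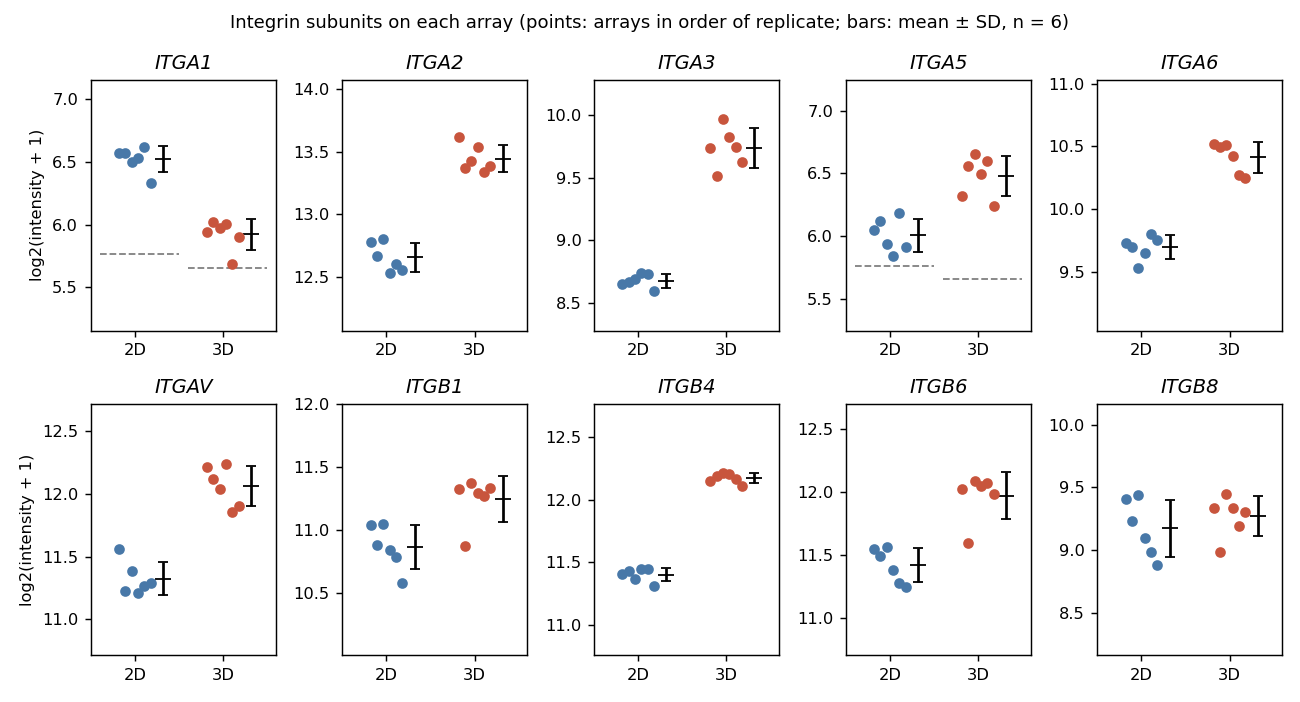
Level of each integrin subunit on every array, as log2(intensity + 1) of its brightest probe set, over a span of equal size in each panel; points are arrays in order of replicate, bars are mean ± SD (n = 6), and dashed lines are the mean control level of each group where it falls in the panel. Only ITGA1 lies lower in 3D, and ITGB1 and ITGB8 are the genes whose groups overlap.

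The collagen-binding chains went in opposite directions. ITGA2, the main collagen receptor chain of epithelia, had a lowest, median and highest level of 12.53, 12.64 and 12.81 in 2D and of 13.34, 13.40 and 13.61 in 3D. Every 3D array lay above every 2D array, and the log2 fold change was 0.79 (SE 0.06, 1.73-fold, limma adjusted p = 6.26e-08). ITGA1, which favours basement membrane collagen, had levels of 6.33, 6.55 and 6.62 in 2D and of 5.69, 5.96 and 6.02 in 3D. All 3D arrays lay below all 2D arrays, with a log2 fold change of -0.60 (SE 0.06, 0.66-fold, limma adjusted p = 1.75e-06).

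ITGA1 was a dim gene, so part of its signal was near the array's floor. The control level, the 95th percentile of 59 probe sets for bacterial and tag sequences, averaged 5.76 in 2D and 5.66 in 3D. ITGA1 exceeded it on 6 of 6 arrays in 2D and on 5 of 6 in 3D, where replicate 5 was at 5.69. Both genes share a chromosome in the RefSeq annotation of assembly UU_Cfam_GSD_1.0, with a single protein-coding gene between them.

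The laminin-binding chains rose, and ITGA3 changed most of the 10 members. ITGA3, partner of ITGB1 in the laminin receptor of basal epithelial membranes, had levels of 8.59, 8.68 and 8.74 in 2D and of 9.51, 9.74 and 9.97 in 3D. The groups did not overlap, and the 3D arrays were spread more widely (SD 0.16 against 0.06). The log2 fold change was 1.06 (SE 0.07, 2.08-fold, limma adjusted p = 3.42e-09), higher than or equal to that of 98.3% of all genes.

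ITGA6, which pairs with ITGB1 or ITGB4, had levels of 9.53, 9.72 and 9.80 in 2D and of 10.25, 10.46 and 10.52 in 3D. Its groups were separate, with a log2 fold change of 0.72 (SE 0.06, 1.64-fold, limma adjusted p = 1.72e-07). ITGB4, whose long tail ties laminin to keratin filaments in hemidesmosomes, had levels of 11.31, 11.42 and 11.45 in 2D and of 12.11, 12.18 and 12.21 in 3D. It was the tightest member within groups, with an SD of 0.05 in 2D and 0.04 in 3D. ITGB4 rose by 0.77 on the log2 scale (SE 0.04, 1.70-fold, limma adjusted p = 7.78e-10).

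ITGB1, the common partner of most alpha chains here, rose less than ITGA2, ITGA3 or ITGAV. Its levels were 10.57, 10.86 and 11.04 in 2D and 10.87, 11.31 and 11.37 in 3D. Replicate 2 of 3D, at 10.87, lay among the 2D arrays, and the other 3D arrays lay above all of them. The log2 fold change was 0.39 (SE 0.09, 1.31-fold, limma adjusted p = 0.00345).

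The fibronectin receptor chain ITGA5 was dim but separated. It had levels of 5.84, 5.99 and 6.18 in 2D and of 6.24, 6.53 and 6.65 in 3D, above the control level on all arrays. Its log2 fold change was 0.47 (SE 0.08, 1.39-fold, limma adjusted p = 0.000162).

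Of the ITGAV group, ITGAV and ITGB6 rose and ITGB8 did not pass. ITGAV, the alpha chain of receptors for fibronectin, vitronectin and latent TGF-beta, had levels of 11.21, 11.28 and 11.56 in 2D and of 11.86, 12.08 and 12.24 in 3D. The groups were apart, with a log2 fold change of 0.74 (SE 0.08, 1.67-fold, limma adjusted p = 1.28e-06). ITGB6, an epithelial chain that pairs with ITGAV, had levels of 11.25, 11.44 and 11.57 in 2D and of 11.59, 12.04 and 12.09 in 3D.

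The lowest 3D array of ITGB6, replicate 2, was just above the highest 2D array, and the log2 fold change was 0.55 (SE 0.08, 1.47-fold, limma adjusted p = 8.14e-05). ITGB8, the other activator of latent TGF-beta, had levels of 8.88, 9.16 and 9.44 in 2D and of 8.99, 9.32 and 9.45 in 3D. Its groups overlapped over nearly their whole range, and the log2 fold change was 0.095 (SE 0.10, limma adjusted p = 0.455).

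The RNA ratio and the array that stood apart touched the beta chains ITGB1, ITGB6 and ITGB8. In each of these the lowest 3D value was on replicate 2 and the lowest 2D value on replicate 6. ITGA3 shared both features, and ITGA1 and ITGB4 were also lowest in 2D on replicate 6. Without 3D replicate 2 the log2 fold change of ITGB1 was 0.46 (limma adjusted p = 0.000132). It was 0.63 for ITGB6 (limma adjusted p = 1.08e-06) and 0.15 for ITGB8 (limma adjusted p = 0.194). When the RNA ratio entered the fit as a covariate, the log2 fold change of ITGB1 was 0.023 (SE 0.09, limma adjusted p = 0.905). That of ITGB6 was 0.20 (SE 0.08, limma adjusted p = 0.0926). ITGB8 then had -0.30 (SE 0.10, limma adjusted p = 0.0411), the opposite sign. The dimmer ITGB1 probe set went the other way, from 0.41 to 0.66 (limma adjusted p = 0.00293), and the second brightest of ITGB6 had 0.19 (limma adjusted p = 0.155).

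The other 7 members kept their direction and their call with the covariate, from -0.56 for ITGA1 to 0.92 for ITGA3, with ITGB4 at 0.80 and ITGA6 at 0.81. In that fit 6 members were raised and 2 lowered, and over all genes 12.6% were raised and 8.33% lowered. The ratio differs between the groups, so its part and that of culture in ITGB1 and ITGB6 cannot be told apart.

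**Figure D2:**
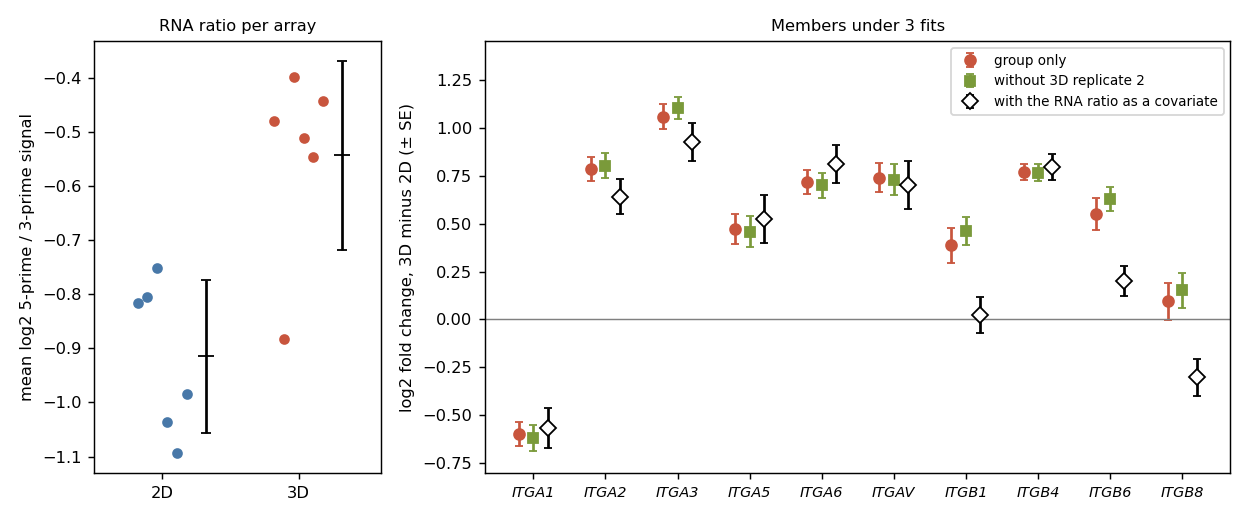
Left, the mean log2 ratio of 5-prime to 3-prime signal of actin and GAPDH control probe sets on each array (points, in order of replicate; bars, mean ± SD, n = 6). Right, the log2 fold change (± SE) of each integrin subunit by group alone, without 3D replicate 2, and with that ratio added to the fit. With the covariate ITGB1 and ITGB6 no longer pass and ITGB8 lies below 0, and the other members keep their direction and call.

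Partner chains were then compared within arrays, as the difference of alpha and beta log2 values, over 9 known pairs. The change of that difference from 2D to 3D shows unequal change of both partners, not how much receptor is made. The RNA ratio was not part of these 9 comparisons, although the brightest ITGB1, ITGB6 and ITGB8 probe sets had lower changes with it. ITGA3 gained on ITGB1 by 0.67 (SE 0.09), ITGA2 on ITGB1 by 0.40 (SE 0.08) and ITGAV on ITGB8 by 0.64 (SE 0.11), while ITGA1 minus ITGB1 had a change of -0.98 (SE 0.12). In these 4 pairs the arrays of the groups did not overlap (exact two-sided permutation p = 0.00216, the smallest that 6 against 6 arrays can give, and 0.00487 adjusted over the 9 pairs).

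ITGAV minus ITGB1 had a change of 0.35 (SE 0.12, exact permutation p adjusted over the 9 pairs = 0.0273). ITGA6 minus ITGB1, at 0.33 (SE 0.14, exact permutation p adjusted = 0.0519), missed the threshold. The first call ended without any 1 of 2D replicates 2, 3 and 4 (0.33 in each, exact permutation p adjusted = 0.0584), and the second comparison passed without 2D replicate 5, 2D replicate 6 or 3D replicate 6 (0.37, 0.40 and 0.38; exact permutation p adjusted = 0.0487, 0.0162 and 0.0422).

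A difference from 2D to 3D did not pass for 3 pairs. ITGA6 minus ITGB4, the hemidesmosome pair, had a change of -0.053 (SE 0.06, exact permutation p adjusted = 0.429). ITGAV minus ITGB6 had 0.19 (SE 0.12, exact permutation p adjusted = 0.178) and ITGA5 minus ITGB1 had 0.086 (SE 0.14, exact permutation p adjusted = 0.584). These p-values do not show that the partners changed alike.

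**Figure D3:**
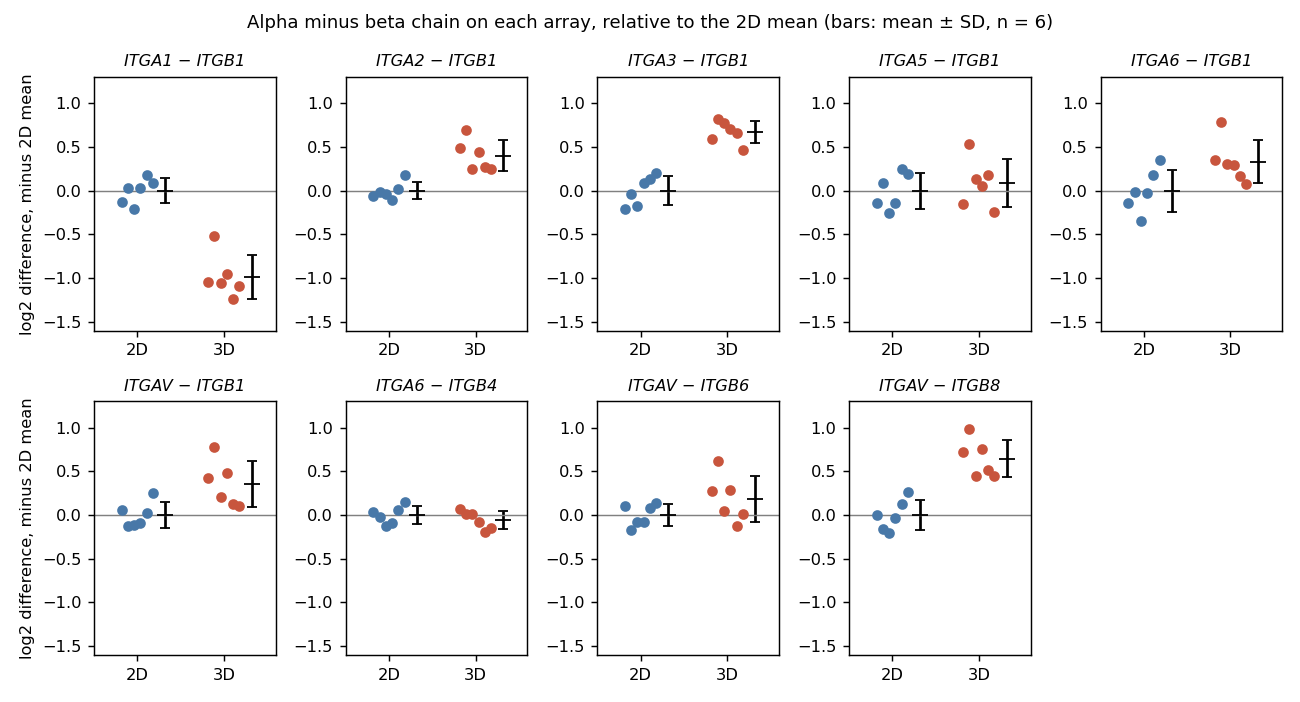
Difference between the log2 values of an alpha and a beta chain on each array, minus the 2D mean of that pair (points, arrays in order of replicate; bars, mean ± SD, n = 6). ITGA3 and ITGA2 rise against ITGB1, ITGAV rises against ITGB8 and ITGA1 falls against ITGB1 without overlap, whereas the arrays of ITGA6 minus ITGB4 overlap.

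The probe sets of a gene did not all follow its brightest one. Of the 26 probe sets 15 rose, 4 fell and 7 did not pass, beside 16.7% raised and 22.0% lowered over all probe sets. The groups did not overlap for 12 raised and 1 lowered, where 10.1% and 8.62% of all probe sets were so separated. Among the 17 that exceeded the control level on all 12 arrays, 13 rose, 1 fell and 3 did not pass, whereas among the other 9 there were 2 raised, 3 lowered and 4 not passed. ITGA2, ITGAV, ITGB4 and ITGB6 each had a second bright probe set that rose with the first, by 0.89, 0.91, 0.81 and 0.73 on the log2 scale. The pair of ITGB1 probe sets gave 0.39 and 0.41, the second being above the control level on 1 of 6 arrays in 2D and on 6 of 6 in 3D.

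The 4 probe sets of ITGA6 disagreed. The third brightest was at or below the control level on every 2D array, with levels of 5.29, 5.53 and 5.84, and at 7.65, 7.75 and 7.89 in 3D. Its rise was at least 3.98-fold (mean 3D level against the mean 2D control level; limma adjusted p = 1.28e-11). The second brightest rose by 0.94 (SE 0.08). The dimmest, above the control level on all arrays, went from 6.69 ± 0.17 to 6.54 ± 0.18 (SD, n = 6 each), a log2 difference of -0.15 (SE 0.09, limma adjusted p = 0.191).

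Against the brightest ITGA6 probe set, the dimmest had a change of -0.87 (SE 0.11; exact permutation p = 0.00216, and 0.00495 adjusted over the 16 such comparisons, chosen after the values were seen). The gene is known to be spliced into forms with different cytoplasmic tails. Which exons these probe sets read was not analysed here. With probe sets of suffix _s_at or _x_at left out, the third stands for ITGA6, with its rise of at least 3.98-fold in place of 1.64-fold. It is taken there only through its 3D level, since its mean over all arrays was 6.65 against 6.62 for the dimmest. In 2D its mean was the lower, 5.55 against 6.69. The larger fold thus comes with the choice, and the dimmest, the only other probe set left, did not pass.

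Dim or divergent probe sets were found for ITGAV, ITGB6, ITGA2 and ITGA5. Of the 3 dimmer ITGAV probe sets, the brightest did not pass (-0.10 on the log2 scale, limma adjusted p = 0.173). The next had -0.20 (SE 0.06, limma adjusted p = 0.0116), and -0.16 with the covariate (limma adjusted p = 0.269). The dimmest was above the control level on 0 of 12 arrays and is given no fold. It was called lower (limma adjusted p = 0.0359), but not with quantile normalization, median centring or the covariate (limma adjusted p = 0.272, 0.0819 and 0.424), nor without any 1 of 2D replicates 3 and 6 and 3D replicates 1, 3, 4 and 5. The third brightest of ITGB6 fell by 0.24 on the log2 scale (SE 0.07, limma adjusted p = 0.0122) and was above the control level on all arrays, but had -0.13 with the covariate (limma adjusted p = 0.456). The other dim probe sets of ITGB6 were above the control level on 0 arrays and are given no fold. The second ITGA5 probe set had 0.052 (limma adjusted p = 0.416) and was above the control level on 0 of 6 arrays in 2D. Averaged over all its probe sets, ITGAV had a log2 fold change of 0.24, ITGB6 of 0.19 and ITGA5 of 0.26, all still called. Probe sets ending in _s_at, which can read several transcripts, were 10 of the 26 and stand for ITGA2, ITGA3, ITGA6 and ITGB1; ITGA1, ITGA3 and ITGB8 had 1 probe set each.

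**Figure D4:**
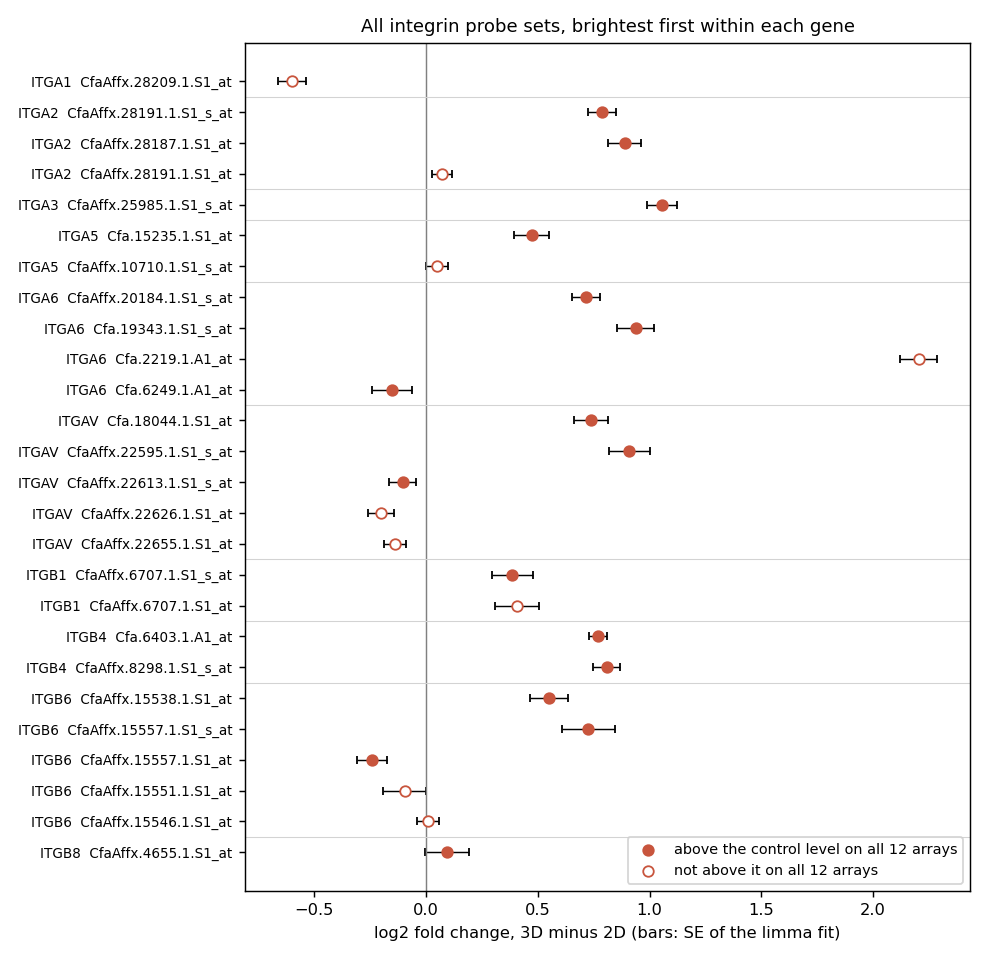
Log2 fold change from 2D to 3D (± SE of the limma fit) of all 26 integrin probe sets, brightest first within each gene. Filled points were above the control level on all 12 arrays; the bright probe sets of ITGA2, ITGAV, ITGB4 and ITGB6 lie together on the right, the ITGA6 probe set farthest right is not above the control level in 2D, so that its rise is a lower bound, and most dim ones lie near 0.

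Of 16 remaining integrin and integrin-like genes measured on the array, 2 rose and 6 fell, with a median of -0.10. They include ITGBL1, an integrin-beta-like gene rather than a subunit, which did not pass (-0.040, limma adjusted p = 0.557). Over all genes 19.8% were raised and 22.9% lowered, and with the covariate 12.6% and 8.33%. These shares also stand beside the counts of the lists below. ITGB3 and ITGB5, further partners of ITGAV, rose by 0.67 (SE 0.11) and 0.48 (SE 0.05) on the log2 scale. The leukocyte chains ITGAM and ITGAL had -0.26 (SE 0.09) and -0.19 (SE 0.06), at mean levels of 6.01 to 6.27, close to the control level. The 6 falls became 3 with quantile normalization or without either of 3D replicates 3 and 4, and 0 under the covariate. ITGAM lost its call also without 2D replicate 1 or 3D replicate 5, and ITGB3 did not pass with the covariate (0.36, limma adjusted p = 0.145).

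Matrix genes bound by these receptors were mixed, and 8 rose and 2 fell of 24 measured (median -0.016). The laminin chain LAMA3, part of the hemidesmosome ligand, rose by 1.88 (SE 0.07) and fibronectin, FN1, by 1.23 (SE 0.07). CCN1, a matricellular integrin ligand, and the laminin chain LAMC1 rose by 0.78 each (SE 0.17 and 0.12). Under the covariate 3 ligands were raised, and CCN1 (0.48, limma adjusted p = 0.262) and LAMC1 (0.42, limma adjusted p = 0.0661) did not pass. The 2 falls became 5 without 3D replicate 2 or with array weights, and 6 with the probe sets of each gene averaged. They became 1 with quantile normalization or the covariate, and 1 of 16 genes left by a filter on low values. Of 6 measured hemidesmosome partners of ITGA6 and ITGB4, 4 rose and 1 fell (median 0.45). Besides LAMA3, the keratin linker PLEC rose by 0.77 (SE 0.12), LAMB3 by 0.36 (SE 0.09) and COL17A1 by 0.54 (SE 0.06), although 1 of its 2 probe sets fell. LAMB3 did not pass with the covariate (0.10, limma adjusted p = 0.609), and the fall, of the keratin linker DST, named after its value was seen (-0.23, limma adjusted p = 0.0255), ended after median centring, with the covariate, and without any 1 of 2D replicates 1 and 4 and 3D replicate 6.

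In the latent TGF-beta axis, with which ITGAV, ITGB6 and ITGB8 work, 3 of 10 measured genes rose and 1 fell (median -0.045). LTBP1, which anchors latent TGF-beta in the matrix, rose by 1.09 (SE 0.11), from 8.02 ± 0.19 to 9.11 ± 0.24 (SD, n = 6 each). The ligand TGFB2 passed (limma adjusted p = 3.05e-05) but was above the control level on 0 of 6 arrays in 2D and 4 of 6 in 3D, so no fold is given. LTBP3 had 0.20 (SE 0.06), with 1 of its 4 probe sets raised and 1 lowered, and lost its call with quantile normalization, with the covariate (0.13, limma adjusted p = 0.448), and without any 1 of 2D replicate 2 and 3D replicates 1, 3 and 4. The receptor TGFBR2 had -0.27 (SE 0.04). The 1 fall became 2 without any 1 of 2D replicate 3 and 3D replicates 2 and 5.

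Among 24 measured activators and cytoplasmic adaptors 9 rose and 2 fell (median 0.11), with 5 raised under the covariate. Those that changed most link integrins to actin: the crosslinkers ACTN1 and FLNA rose by 1.59 (SE 0.07) and 1.00 (SE 0.05), and vinculin, VCL, by 1.03 (SE 0.10). The tensin TNS3 had -0.36 (SE 0.11). With the covariate VCL had 0.67 and TNS3 -0.73, both still called. TLN1, the talin that activates integrins, and PTK2, focal adhesion kinase, both picked out after their values were seen, had -0.12 (SE 0.07, limma adjusted p = 0.195) and -0.0595 (SE 0.08, limma adjusted p = 0.579). These values are of the brightest probe sets, and others differed. Of the 4 probe sets of TLN1 0 were raised and 1 lowered, and of the 6 of PTK2 2 were raised and 0 lowered.

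Of 16 measured integrin inhibitors and recycling genes, 7 rose and 1 fell (median 0.12). FABP3, a fatty acid binding protein also known to bind integrin alpha tails, rose by 1.20 (SE 0.13), and DAB2, an endocytic adaptor for integrins, had -1.20 (SE 0.07). CLIC3 and the GTPase ARF6, both of integrin recycling, rose by 0.80 (SE 0.06) and 0.66 (SE 0.08). The 1 fall became 3 without 2D replicate 6, 2 without 3D replicate 5 and 4 with quantile normalization. Of 11 lateral partners 4 rose and 2 fell (median 0.039). The tetraspanins CD81 and CD9 rose by 0.64 (SE 0.04) and 0.52 (SE 0.05), CD47, a partner of ITGAV integrins, rose by 0.49 (SE 0.04), and the tetraspanin CD82 had -0.29 (SE 0.05).

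**Figure D5:**
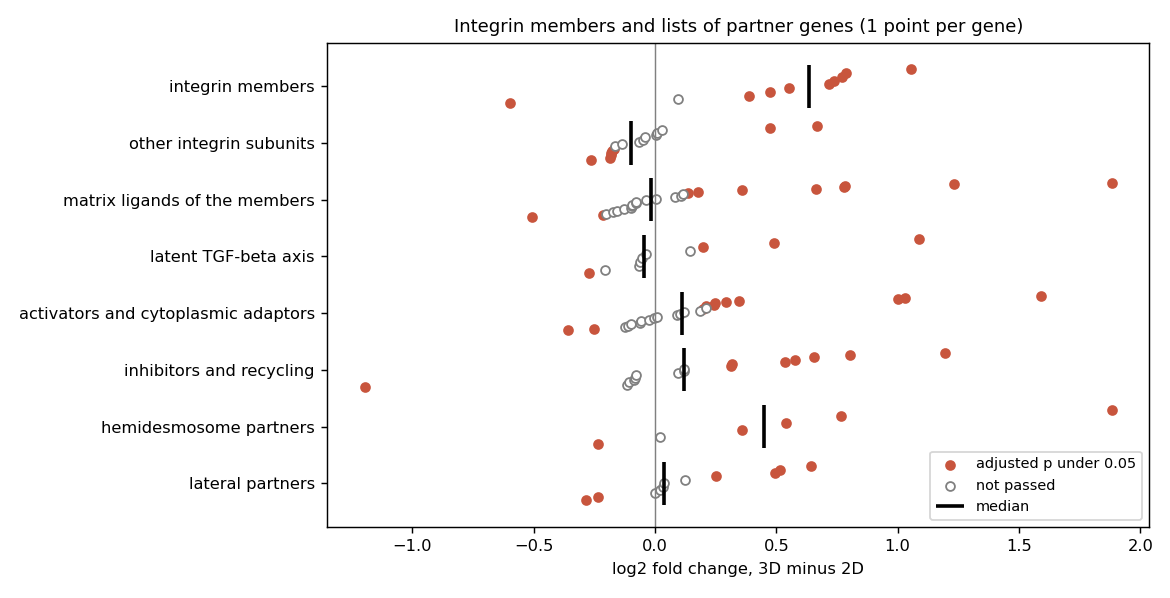
Log2 fold change from 2D to 3D of the 10 integrin subunits and of 7 lists of partner genes, 1 point per gene (filled, adjusted p under 0.05; open, not passed), with the median as a bar. The members have a median of 0.63, and the list medians run from -0.10 to 0.45.

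The genes with profiles most like that of ITGA3, by the root mean square difference over the 12 arrays after subtracting each gene's 2D mean, were WARS1, FKBP10, IRF1, IFNGR1 and TSPAN9. The difference was 0.063 for WARS1, a tryptophan tRNA synthetase, and 0.091 for TSPAN9, a tetraspanin. Their log2 fold changes lay between 1.06 and 1.11, so the likeness includes the size of the change itself.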

How the data were processed

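The deposited values are 1 linear-scale intensity per probe set and array. GCRMA, a background correction and summary method, is named without a version in the submitters' processing notes, and whether values were scaled afterwards is not stated there. No further normalization was applied, and log2(intensity + 1) was used. After 111 control probe sets were left out, 42924 were tested without a filter on low values. Of these, 29254 named 1 gene, 439 several and 13231 none. The probe set with the highest mean stood for a gene. RefSeq (UU_Cfam_GSD_1.0) changed 0 symbols and was used for names and gene order.

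Groups came from the labels. Group was the only term in a limma 3.58.1 model (lmFit, then eBayes; R 4.3.3), tested two-sided, with Benjamini-Hochberg adjustment over all probe sets at 0.05. It was tested on simulated data. Differences between chains were tested by exact permutation (two-sided; 924 ways to assign arrays). Depth has no meaning for arrays, and 6 per group limit the precision. The members and lists were chosen with earlier results of these data known. All members are named, with up to 4 called genes of each list by size of change. Some listed genes are not reported here. Alternatives were a filter (log2 above 6 on at least 6 arrays), quantile normalization, median centring, a pseudocount of 16, a trended robust variance, array weights, a replicate block, the RNA ratio as a covariate, leaving out each array, a minimum of 1.5-fold, and other choices of probe set. Leaving out 2D replicate 6 and 3D replicate 2 together was added after the data were seen. Figures used matplotlib 3.10.9.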

Additional observations from a re-analysis of the deposited data

Results flagged for a closer look

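In 72 groups of 6 values (26 probe sets and 9 chain differences and the RNA ratio, each in 2D and 3D), 5 had a single array far from the rest by Dixon's test at 95%, which chance alone gives in about 1 of 20. Replicate 2 of 3D was the lowest for ITGB1 (10.87, next 11.27), for ITGB6 by its brightest probe set (11.59, next 11.98) and by its second brightest (10.52, next 11.16), and for the RNA ratio (-0.88, next -0.55). Replicate 5 of 3D was the lowest for ITGA1 (5.69, next 5.91).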

How the results depend on the processing

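The 8 raised and 1 lowered genes kept direction and call under the filter, both normalizations, the pseudocount, the variance model, array weights, the replicate block, both probe set choices (ITGA3 has no value where _s_at probe sets are left out) and each array left out. Without _s_at probe sets, ITGA6 rests on the probe set taken through its 3D level. ITGB1 then rests on one above the control level on 1 of 6 arrays in 2D, so that choice is a weak check for both. With the RNA ratio as a covariate 2 genes were lowered, and the log2 fold change was 0.023 for ITGB1, 0.20 for ITGB6 and -0.30 for ITGB8. At a minimum of 1.5-fold 5 genes were raised. The count of 4 lowered probe sets was 2 with the filter, with quantile normalization and with the covariate (there ITGA1 and ITGB8, the latter not among the 4), and 1 at 1.5-fold; leaving out 1 array gave 3 to 5. Leaving out 1 array gave 0.27 to 0.40 for ITGAV minus ITGB1 and 0.24 to 0.40 for ITGA6 minus ITGB1, which was 0.31 and passed without 2D replicate 6 and 3D replicate 2 together (exact permutation p adjusted = 0.0357). Without _s_at probe sets LTBP3 had -0.16 and COL17A1 -0.15, each read by another probe set. Causes were otherwise not tested. The replicate numbers were not taken to pair arrays, since not every correlation was over 0.1, and pairing is not excluded (same-number correlations 0.00084 to 0.36; 4 of 6 arrays best matched their own number), and the replicate block gave 8 raised and 1 lowered genes and 15 raised and 3 lowered probe sets. Signal near the control level limits ITGA1, ITGA5 and the dim probe sets.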
